A study of Homo sapiens with 12 samples.

Results

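The genes described here carry peptides into the endoplasmic reticulum (ER), trim them there and load them onto class I HLA molecules. They are the 10 genes *TAP1*, *TAP2*, *TAPBP*, *TAPBPL*, *ERAP1*, *ERAP2*, *CALR*, *CANX*, *PDIA3* and *LNPEP*, taken by name from the 45416 genes of the deposited table, and all 10 were found and tested. They were followed over 12 RNA-seq libraries of U251 cells, an established human glioblastoma line labelled as wild type, with 2 libraries in each of 6 groups. Cells had received a control siRNA (siNC) or either of 2 siRNAs against *PD-L1* (siPDL1-1 and siPDL1-2) for 48 h, and were then left unstimulated or stimulated with IFNγ at 100 U/ml for 24 h. All groups, controls included, had been transfected, and no untransfected cells enter the comparisons.

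A cell shows fragments of its own proteins to cytotoxic T cells on class I HLA molecules. Peptides made by the proteasome in the cytosol cross the ER membrane through the TAP transporter, a dimer of the products of *TAP1* and *TAP2*. Tapasin (*TAPBP*) ties TAP to the class I heavy chain, together with calreticulin (*CALR*) and the disulfide isomerase ERp57 (*PDIA3*), while calnexin (*CANX*) holds the heavy chain at an earlier step of folding. TAPBPR (*TAPBPL*) is a tapasin relative that edits the bound peptide without TAP. ERAP1 and ERAP2 are aminopeptidases that shorten peptides in the ER, and their relative IRAP (*LNPEP*) trims peptides in endosomes. Class I genes are among the known targets of IFNγ.

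*TAP1*, *TAP2* and *TAPBP* lie in the class II region of the HLA locus and its edge on chromosome 6 of GRCh38, at chr6:32845209-32853978, chr6:32821833-32838770 and chr6:33299694-33314387, all on the minus strand. *ERAP1* (chr5:96760810-96808100, minus strand), *ERAP2* (chr5:96875986-96919703, plus strand) and *LNPEP* (chr5:96935394-97037513, plus strand) are neighbours on chromosome 5, with gaps of 67.89 kb and 15.69 kb between their listed regions. The other 4 genes are scattered. *TAPBPL* is at chr12:6451690-6466517, *CALR* at chr19:12938578-12944489, *CANX* at chr5:179678628-179731641 and *PDIA3* at chr15:43746410-43773278, all on the plus strand.

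The promoters of these genes were read from RefSeq (GRCh38.p14) as windows of 300 bases that run from 250 bases before the start site to 50 bases after it. Of the 10 genes, 9 had a window, all but *PDIA3*, and for each gene only the window at the start site of its canonical transcript was searched. *CANX* had 4 windows, and *TAP1*, *TAPBPL*, *ERAP1*, *ERAP2* and *LNPEP* had 2 each, so other start sites of these genes were not searched. The core of the interferon-stimulated response element (ISRE), GAAANNGAAA on either strand, was in the windows of 5 of the 9 genes, *TAP1*, *TAP2*, *TAPBP*, *ERAP1* and *ERAP2*, and in 3.57% of all 35116 windows. The ER stress element (ERSE), searched on both strands, was in the windows of *CALR* and *CANX* and in 0.0769% of all windows. The gamma-activated sequence TTCNNNGAA was in none of the 9 windows, against 7.66% of all windows. The searched windows of *TAPBPL* and *LNPEP* held none of the 3 motifs. A match describes these letters only and does not show that a factor was bound. The upstream windows of both transporter genes are printed whole because the results turn on this pair, and the others as short stretches around the match. All are written 5′ to 3′ on the strand of the gene, with the matched letters in capitals. In *TAP1* and *TAPBP* a pair of ISRE cores overlap, and in *TAP1*, *ERAP1* and *CALR* the match is on the opposite strand.
TAP1, chr6:32853705-32853954, minus strand: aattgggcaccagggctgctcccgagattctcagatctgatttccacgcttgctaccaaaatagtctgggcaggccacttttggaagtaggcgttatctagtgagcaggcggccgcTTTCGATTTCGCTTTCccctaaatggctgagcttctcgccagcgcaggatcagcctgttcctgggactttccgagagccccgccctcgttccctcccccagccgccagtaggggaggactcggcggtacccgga
TAP2, chr6:32838740-32838989, minus strand: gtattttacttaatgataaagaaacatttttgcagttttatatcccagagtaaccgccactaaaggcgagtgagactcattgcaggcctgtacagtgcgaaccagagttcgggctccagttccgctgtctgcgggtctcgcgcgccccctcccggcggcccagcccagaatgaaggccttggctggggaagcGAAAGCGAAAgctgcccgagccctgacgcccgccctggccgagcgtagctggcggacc
TAPBP, chr6:33314079-33314108, minus strand: ccctttggagGAAAGTGAAAGTGAAAggag
ERAP1, chr5:96807924-96807953, minus strand: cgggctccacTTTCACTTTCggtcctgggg
ERAP2, chr5:96876460-96876489, plus strand: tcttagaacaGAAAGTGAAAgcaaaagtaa
CALR, chr19:12938364-12938423, plus strand: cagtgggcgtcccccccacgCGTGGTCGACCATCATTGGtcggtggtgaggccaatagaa
CANX, chr5:179698758-179698817, plus strand: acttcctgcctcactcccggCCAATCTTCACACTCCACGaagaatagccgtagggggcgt

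Counted from the start site, the ISRE cores began at -134 and -128 in *TAP1*, at -58 in *TAP2*, at -20 and -14 in *TAPBP* and at -30 in *ERAP2*. In *ERAP1* the core lay just past the start site, from base 3 to base 12 of the transcript. The ERSE matches lay farther upstream, from -225 to -207 in *CALR* and from -189 to -171 in *CANX*. The map of motif matches sets these positions side by side.

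**Figure D1:**
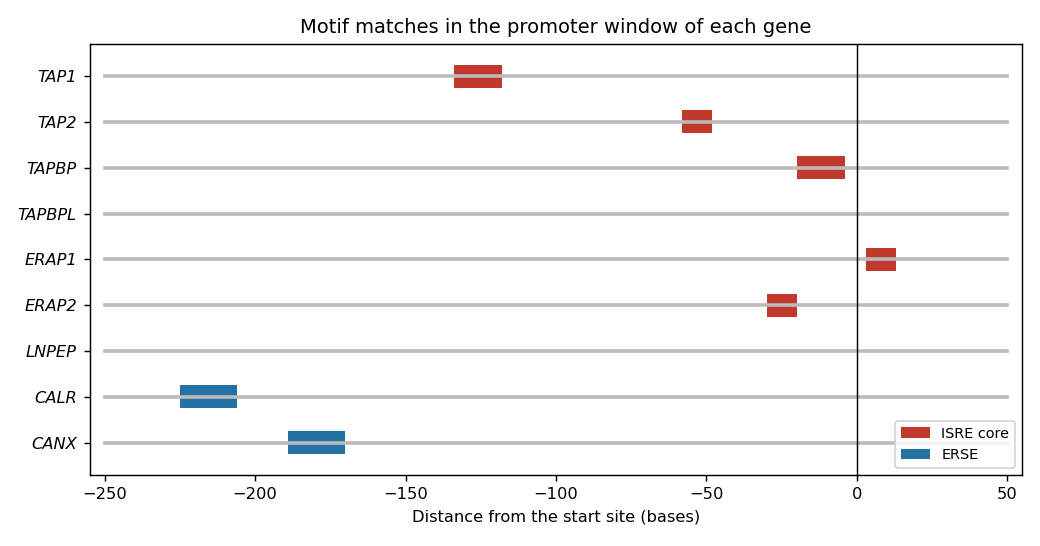
Matches to the ISRE core (red) and the ERSE (blue) in the promoter window of 9 genes, with distance from the start site in bases on the x axis and a grey line for each window. The ISRE matches lie between -134 and 12 in 5 genes, the ERSE matches between -225 and -171 in *CALR* and *CANX*, and the lines of *TAPBPL* and *LNPEP* are empty.

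The values are the CPM (reads on a gene relative to the depth of its library) as normalized by the authors. Libraries held between 17101069 and 55657393 reads on genes, and 1 read was worth between 0.0187 and 0.0586 CPM, and *TAPBPL*, the lowest of the 10 genes, was at 2.01 CPM in its lowest library. Groups were compared with limma on log2(CPM + 1), and p-values were adjusted over all genes tested, 17982 over the 12 libraries and 17148 over the 6 stimulated ones. A gene was called at FDR < 0.01 and fold change > 1.5. Fold changes from limma are on the log2(CPM + 1) scale, which understates changes of low genes, and those from edgeR are on its own log2 scale from recovered reads. Each group had 2 libraries, from 2 independent experiments according to the methods, and in bulk libraries a change in every cell cannot be told apart from a larger change in some of them. The 9 glioma line markers, from *VIM* to *TNC*, summed to between 4827 and 5749 CPM in each library, although *GFAP* averaged no more than 7.05 CPM and *S100B* no more than 5.50 CPM in any unstimulated group. The 8 leukocyte markers summed to at most 0.928 CPM and the 3 endothelial markers to at most 5.63 CPM. *CD274*, which encodes PD-L1, was 71.2 and 76.0 CPM in siNC cells after IFNγ, 60.9 and 66.7 CPM with siPDL1-1, and 37.5 and 35.04 CPM with siPDL1-2. The reduction after IFNγ was called with siPDL1-2 (log2 fold change -1.001, limma FDR = 2.79e-05) and not with siPDL1-1 (-0.20, limma FDR = 0.0604), whereas in unstimulated cells it was called with siPDL1-1 only (-0.64, limma FDR = 1.76e-05) against -0.35 with siPDL1-2 (limma FDR = 0.00183). Comparisons named after siPDL1-1 therefore concern cells whose *CD274* was not called lower after IFNγ.

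Per kilobase of the canonical transcript, the 10 genes spanned a wide range before stimulation. In unstimulated siNC cells the lectin chaperones and ERp57 stood highest, with *CALR* at 420 ± 3.43 CPM per kb, *CANX* at 148 ± 0.940 and *PDIA3* at 110 ± 3.34 (mean ± SD, n = 2 libraries). *TAPBP* followed at 35.2 ± 0.0729, then *TAP1* at 19.5 ± 0.363 and *TAP2* at 12.5 ± 1.13 CPM per kb. The trimming enzymes were lower, with *ERAP2* at 8.14 ± 0.245, *ERAP1* at 7.89 ± 0.319 and *LNPEP* at 6.29 ± 0.106 CPM per kb, and *TAPBPL* was last at 1.47 ± 0.0149. *ERAP1* and *ERAP2* were the only neighbours in this order whose libraries overlapped. After IFNγ, *TAP1* in siNC cells reached 494 ± 16.5 CPM per kb and passed *CALR* at 445 ± 3.41, with no overlap between their libraries.

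The effect of IFNγ was first taken in siNC cells, where it raised 7 of the 10 genes and lowered none. Of all genes tested, 8.12% were called in either direction and 6.67% were called higher. *TAP1* showed the largest response of the 10. It went from 53.1 and 51.7 CPM to 1358 and 1295 CPM, a log2 fold change of 4.64 (standard error 0.053, limma FDR = 3.97e-18). *TAP2* rose from 74.9 and 65.9 CPM to 388 and 380 CPM, a log2 fold change of 2.43 (standard error 0.053, limma FDR = 1.13e-14). The intervals of the log2 fold changes of the transporter subunits, 4.52 to 4.75 and 2.32 to 2.55, did not overlap. The ratio of *TAP1* to *TAP2*, per kb, was 1.49 and 1.65 in unstimulated siNC libraries and 7.35 and 7.17 after IFNγ.

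Among the loading factors, both tapasin genes rose and the chaperones did not pass the thresholds. *TAPBP* increased from 121 and 122 CPM to 336 and 314 CPM in siNC cells (log2 fold change 1.41, limma FDR = 1.99e-12). *TAPBPL* was low, at 2.64 and 2.61 CPM, and reached 11.1 and 10.1 CPM (log2 fold change 1.68, limma FDR = 3.12e-09). *TAPBPL* overlaps *VAMP1* on the opposite strand over 4281 bases, and since strand was not used in counting, reads of the overlap were not separated. *VAMP1*, which averaged 34.2 CPM over the 12 libraries, was 36.2 and 35.7 CPM before IFNγ and 35.7 and 35.5 CPM after it in siNC cells. The ER chaperones moved far less. *CALR* was 794 and 803 CPM before and 842 and 851 CPM after IFNγ (log2 fold change 0.08, 95% confidence interval 0.01 to 0.16, limma FDR = 0.0856). *CANX* and *PDIA3* had log2 fold changes of 0.38 each, with limma FDR values of 1.89e-06 and 9.88e-07, which were past the FDR threshold and below a fold change of 1.5.

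The ER aminopeptidases rose together in siNC cells. *ERAP1* was 37.1 and 39.3 CPM before and 145 and 149 CPM after IFNγ (log2 fold change 1.92, limma FDR = 2.28e-13). *ERAP2* was 42.6 and 40.9 CPM before and 227 and 232 CPM after (log2 fold change 2.43, limma FDR = 6.69e-15). *ERAP1* lies opposite *CAST*, the calpastatin gene, over 18786 bases, and *CAST* was 666 and 659 CPM before and 591 and 589 CPM after IFNγ. Reads of this overlap were not separated by strand either, so the level of *ERAP1* may include some from *CAST*. *LNPEP*, next to *ERAP2*, changed least of the called genes, from 75.4 and 77.2 CPM to 117 and 120 CPM (log2 fold change 0.63, limma FDR = 2.32e-07), and it dropped to 0.54 and out of the calls when libraries were scaled by their plain totals.

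**Figure D2:**
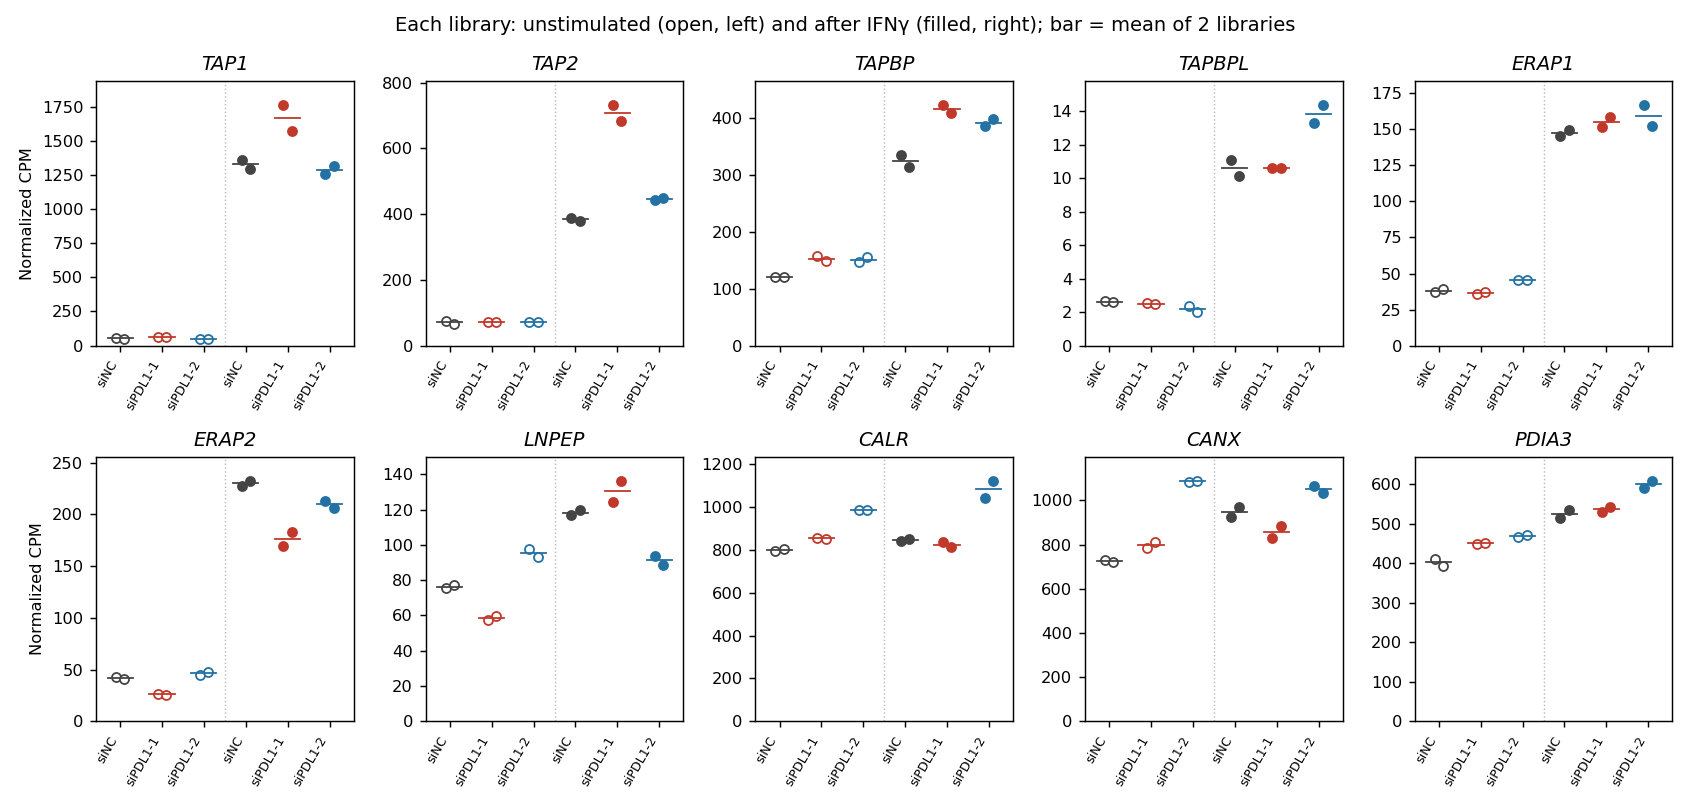
Normalized CPM of the 10 genes in each of the 12 libraries (y axis, starting at 0 in every panel), with open points for unstimulated and filled points for IFNγ-stimulated cells and a bar at the mean of 2 libraries. *TAP1*, *TAP2*, *TAPBP*, *TAPBPL*, *ERAP1* and *ERAP2* are higher in all 6 stimulated libraries than in any unstimulated one, *TAP2* after IFNγ is highest with siPDL1-1 at 732 and 684 CPM, and *LNPEP* with siPDL1-2 shows no rise.

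The same 6 genes, the transporter subunits, both tapasin genes and both ER aminopeptidases, were called higher with IFNγ under every siRNA. With siPDL1-1, 7 of the 10 genes were called higher against 5.58% of all genes tested, and 6.87% were called in either direction. With siPDL1-2, 6 of the 10 were called higher against 3.62% of all genes, and 5.27% in either direction. *TAP1* had log2 fold changes of 4.64, 4.73 and 4.69 in siNC, siPDL1-1 and siPDL1-2 cells, and *TAPBP* of 1.41, 1.44 and 1.37. These comparisons use different libraries, so the sizes can be set side by side, and the differences between them were tested as interactions. *TAP2* had values of 2.43, 3.27 and 2.60, *TAPBPL* of 1.68, 1.73 and 2.22, *ERAP1* of 1.92, 2.05 and 1.79, and *ERAP2* of 2.43, 2.72 and 2.15. *LNPEP* was called with siPDL1-1 as well (1.14, limma FDR = 1.31e-10) and not with siPDL1-2 (-0.07). *CANX* had values of 0.11 and -0.05 with siPDL1-1 and siPDL1-2, neither past the FDR threshold. *CALR* was not past the FDR threshold in any of them. *PDIA3* had values of 0.38, 0.25 and 0.35, each past the FDR threshold and each below the fold change threshold.

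**Figure D3:**
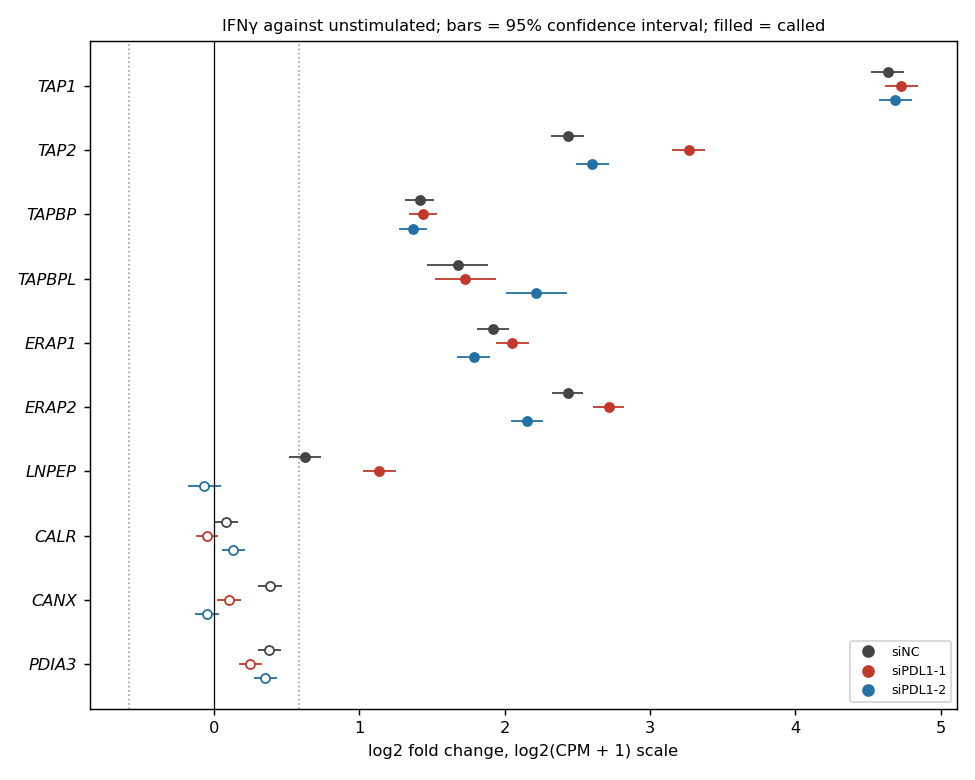
Log2 fold change of IFNγ-stimulated against unstimulated cells on the log2(CPM + 1) scale (x axis) for each gene and siRNA, with 95% confidence intervals from limma, filled points for called changes and dotted lines at a fold change of 1.5. *TAP1* lies between 4.64 and 4.73 under all siRNAs, *TAP2* is shifted to 3.27 with siPDL1-1, and *LNPEP* spreads from -0.07 with siPDL1-2 to 1.14 with siPDL1-1.

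The steps before and after these genes in the pathway moved with them. Of the list of class I heavy chains, *B2M* and the class I transactivator *NLRC5*, 7 of 8 genes were tested, all but *HLA-G*, and all 7 were called higher with IFNγ in siNC cells (median log2 fold change 2.73, against 0.00 over all genes). *HLA-B* had the largest change of them, 3.76 (limma FDR = 2.8e-17), followed by *NLRC5* at 3.30 and *HLA-E* at 2.88. All 6 immunoproteasome and activator genes rose as well, with a median of 2.46. *PSMB9*, the catalytic subunit whose start site lies 488 bases from that of *TAP1* on the other strand, went from 4.46 and 4.43 CPM to 205 and 212 CPM in siNC cells (log2 fold change 5.27, limma FDR = 3.76e-17). Its listed region covers all 8770 bases of *TAP1*, and their reads were not separated by strand. Before IFNγ *PSMB9* was at 4.44 CPM and *TAP1* at 52.4 CPM, on average, in siNC cells. Of 3 lists of other peptidase, chaperone and unfolded protein response genes, 1 gene each was called, against the 8.12% of all genes tested, while 5 of 8, 9 of 19 and 8 of 10 genes had an unadjusted p under 0.05, against 46.2% of all genes. Among 8 cytosolic peptidases only *LAP3*, leucine aminopeptidase, was called (log2 fold change 2.68, limma FDR = 2.47e-15). Of 19 further ER chaperones, oxidoreductases and glycan-processing genes, only the oxidase gene *ERO1A* was called (0.80, limma FDR = 3.15e-08), and of 10 unfolded protein response regulators only *DNAJB9* (0.86, limma FDR = 1.19e-06). None of the 7 tested M1 aminopeptidases outside *ERAP1*, *ERAP2* and *LNPEP* was called by limma or edgeR, while DESeq2 called 1, *AOPEP*, and 4 of the 7 had an unadjusted p under 0.05 in limma. *AOPEP* was lower after IFNγ in siNC cells, at 12.88 and 12.55 CPM against 18.31 and 18.95 CPM before it.

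The next question was whether cells given an siRNA against *PD-L1* differed in these genes before stimulation. With siPDL1-1, 1 of the 10 genes was called against siNC, where 4% of all genes tested were called and 1.45% as lower. It was *ERAP2*, which was 26.3 and 25.6 CPM against 42.6 and 40.9 CPM in siNC cells (log2 fold change -0.67, standard error 0.050, limma FDR = 2.23e-07). *LNPEP* pointed the same way, with 57.6 and 59.8 CPM against 75.4 and 77.2 CPM (log2 fold change -0.37, limma FDR = 7.98e-05), below the fold change threshold. *ERAP1*, from the same stretch of chromosome 5, differed by less, with a log2 value of -0.06 (95% confidence interval -0.17 to 0.05, limma FDR = 0.437). Small differences in the other direction were seen for *TAPBP* (0.33, limma FDR = 6.75e-05), *TAP1* (0.23, limma FDR = 0.0038) and *PDIA3* (0.16, limma FDR = 0.00341), none of which reached a fold change of 1.5. *CANX*, *CALR* and *TAPBPL* had log2 values of 0.13, 0.10 and -0.05, none past the FDR threshold. Of the unfolded protein response regulators, *DDIT3*, a stress-induced transcription factor, was lower (-0.68, limma FDR = 2.1e-07), and so was *HERPUD1*, a factor of ER-associated degradation (-0.61, limma FDR = 3.67e-06). Among the type I interferon-response genes, 9 of 12 were called higher in the same comparison, led by *OAS1* with a log2 value of 1.54, and the summed level of the 12 was 136 CPM in both libraries against 77.4 and 78.5 CPM in siNC cells. The part of these genes in the differences above was not tested.

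With siPDL1-2 in unstimulated cells, limma called none of the 10 genes against siNC, while 6.17% of all genes tested were called. At an unadjusted p under 0.05 there were 7 of the 10, all higher, against 48.2% of all genes, and 6 were past FDR < 0.01 without the fold change threshold, against 28.4% of all genes. edgeR and DESeq2 called none as well. *CANX* was nearest to a call. It was 1083 and 1089 CPM against 729 and 723 CPM in siNC cells (log2 fold change 0.58, 95% confidence interval 0.50 to 0.66, limma FDR = 5.75e-08), and its fold change of 1.49 passed 1.5 when libraries were scaled by plain totals (0.60) and when siNC replicate 1 was left out (0.59). *CALR* was 988 and 985 CPM against 794 and 803 CPM (log2 fold change 0.31, limma FDR = 1.41e-05). *LNPEP* was 97.8 and 93.2 CPM, above the siNC libraries (0.32, limma FDR = 2e-04). *TAPBP* (0.32, limma FDR = 7.52e-05), *ERAP1* (0.24, limma FDR = 0.00183) and *PDIA3* (0.22, limma FDR = 0.000213) were also past the FDR threshold alone. *ERAP2* (0.15), *TAP2* (0.04), *TAP1* (-0.10) and *TAPBPL* (-0.19) were not, with limma FDR of 0.0291 or more. Among the 19 other ER chaperone and oxidoreductase genes, *ERO1A* alone was called higher (1.00, limma FDR = 1e-08), as it was with siPDL1-1 (0.73, limma FDR = 2.56e-07). With siPDL1-1, edgeR and DESeq2 each called 2 genes of this list, *ERO1A* and the chaperone gene *HSPA5*. *HSPA5* was lower, at 393 and 386 CPM with siPDL1-1 against 581 and 569 CPM with siNC. Of the unfolded protein response regulators only *DNAJB9* was called with siPDL1-2, and it was higher (0.77, limma FDR = 5.7e-06). None of the 12 type I interferon-response genes was called with siPDL1-2 by limma, edgeR or DESeq2, and 4 had an unadjusted p under 0.05.

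The siRNAs were also compared with each other in unstimulated cells, where 4.35% of all genes tested were called and 3.47% as lower with siPDL1-1. *ERAP2* was lower with siPDL1-1 than with siPDL1-2, at 26.3 and 25.6 CPM against 45.1 and 47.7 CPM (log2 difference -0.81, limma FDR = 7.73e-08). *LNPEP* was lower too, at 57.6 and 59.8 CPM against 97.8 and 93.2 CPM (log2 difference -0.69, limma FDR = 4.13e-07). These were the 2 of the 10 genes that were called. *TAP2* and *TAPBP* were level between the siRNAs within narrow limits, with log2 differences of 0.01 (95% confidence interval -0.11 to 0.12) and 0.02 (-0.08 to 0.12). *TAP1* (0.33), *ERAP1* (-0.31), *CALR* (-0.21) and *CANX* (-0.45) were past the FDR threshold without reaching a fold change of 1.5, and *TAPBPL* (0.14) and *PDIA3* (-0.06) were not past it.

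After IFNγ, cells given siPDL1-1 had a higher level of *TAP2* than siNC cells and of no other gene of the 10 past both thresholds, against 5.52% of all genes tested and 3.76% called as higher. *TAP2* was 732 and 684 CPM with siPDL1-1 and 388 and 380 CPM with siNC (log2 fold change 0.88, standard error 0.053, 95% confidence interval 0.76 to 1.00, limma FDR = 1.14e-06). The groups did not overlap, and the lower siPDL1-1 library stood far above the higher siNC library. In unstimulated cells the same comparison gave 73.1 and 72.2 CPM against 74.9 and 65.9 CPM (0.05, 95% confidence interval -0.06 to 0.16, limma FDR = 0.546). *TAP1* was 1761 and 1573 CPM against 1358 and 1295 CPM after IFNγ (0.33, limma FDR = 0.00249), and *TAPBP* 423 and 409 CPM against 336 and 314 CPM (0.36, limma FDR = 0.000891), both below the fold change threshold. *ERAP2* remained under the siNC level, at 169 and 183 CPM against 227 and 232 CPM (-0.38, limma FDR = 0.000728), again below the fold change threshold. *TAPBPL*, *ERAP1*, *CALR* and *PDIA3* had log2 values between -0.04 and 0.07 with limma FDR of 0.425 or more, and *CANX* (-0.15, limma FDR = 0.067) and *LNPEP* (0.14, limma FDR = 0.14) were not past the FDR threshold either.

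*TAP2* shares its whole region on the same strand with the transcript *AL669918.1*, so reads could be assigned to either. This transcript was 39.7 and 35.7 CPM with siPDL1-1 after IFNγ, 15.9 and 16.7 CPM with siNC and 34.6 and 31.6 CPM with siPDL1-2. The sum of *TAP2* and *AL669918.1* was 771 and 720 CPM with siPDL1-1, 404 and 397 CPM with siNC and 476 and 479 CPM with siPDL1-2. By this sum, the mean CPM with siPDL1-1 was 1.86 times that with siNC, and the mean with siPDL1-2 was 1.19 times it. The higher value of *TAP2* in siPDL1-1 cells was thus present in the sum.

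The genes of the class I pathway before and after these steps were counted in the same comparison. Neither the 7 tested genes of the heavy chain list nor the 6 immunoproteasome and activator genes held a call by limma, edgeR or DESeq2 for siPDL1-1 against siNC after IFNγ, and 4 of the 7 and 2 of the 6 had an unadjusted p under 0.05 in limma, against 39.6% of all genes. Their median log2 values were 0.10 and -0.00046, against -0.01 over all genes. *PSMB9* was 213 and 203 CPM with siPDL1-1 and 205 and 212 CPM with siNC. *NLRC5* was higher without a call, at 283.5 and 245.2 CPM with siPDL1-1 against 194.2 and 186.3 CPM with siNC. *HLA-E* lay the other way, at 1080 and 1008 CPM against 1176 and 1132 CPM. *NLRC5* and *HLA-E* were named here after their values were seen. In the same comparison, 11 of 12 type I interferon-response genes were called higher (median 3.43), led by *MX2* at 4.79, *OAS2* at 4.34 and *OAS1* at 4.30. The 12 genes summed to 4809 and 4722 CPM with siPDL1-1, 512 and 480 CPM with siNC and 549 and 579 CPM with siPDL1-2. Of the 9 interferon signalling factors, 4 were called higher, with *SOCS1* (1.67), *STAT2* (1.59) and *JAK2* (0.67) changed most, and 1 was called lower, *IRF1* (-0.63), which was named after its value was seen. Whether these genes have a part in the level of *TAP2* was not tested.

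**Figure D4:**
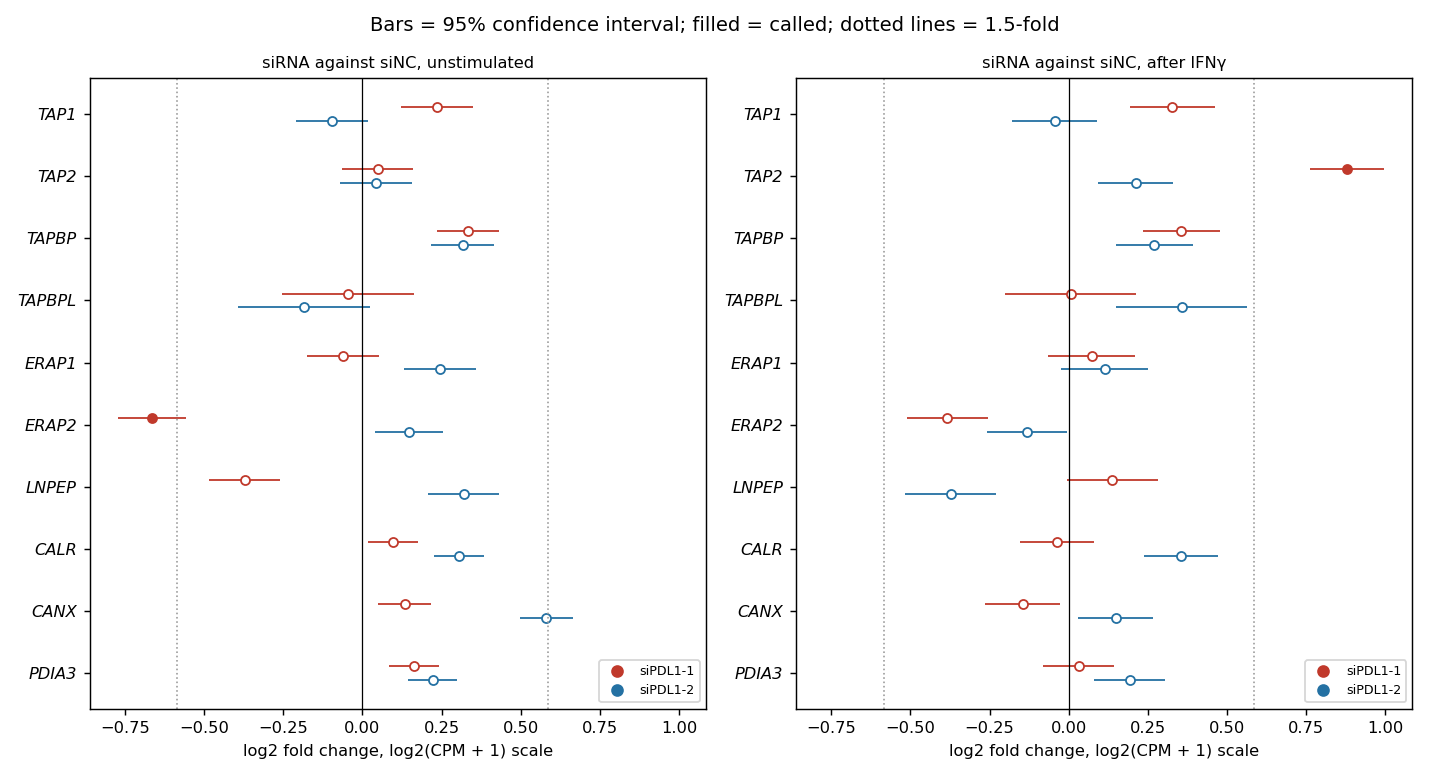
Log2 fold change of each *PD-L1* siRNA against siNC on the log2(CPM + 1) scale (x axis), in unstimulated cells (left) and after IFNγ (right), with 95% confidence intervals from limma and filled points for called changes. Only *ERAP2* on the left (-0.67) and *TAP2* on the right (0.88) are filled, both with siPDL1-1, and *CANX* with siPDL1-2 on the left (0.58) lies just inside the dotted line.

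With siPDL1-2 after IFNγ, limma called none of the 10 genes against siNC, and 2.91% of all genes tested were called. That share was 0.96% without siPDL1-2 replicate 1 and 0.795% without siPDL1-2 replicate 2. At an unadjusted p under 0.05 there were 8 of the 10, of which 6 were higher and 2 lower, against 35.8% of all genes. Without the fold change threshold 3 were past FDR < 0.01, against 9.67% of all genes. edgeR and DESeq2 called none. The 3 were *CALR*, at 1044 and 1122 CPM against 842 and 851 CPM (log2 fold change 0.35, limma FDR = 0.00134), *TAPBP* (0.27, limma FDR = 0.0068) and *LNPEP*, at 93.8 and 88.5 CPM against 117 and 120 CPM (-0.37, limma FDR = 0.00302). *TAP1* was 1257 and 1315 CPM and overlapped with siNC (-0.04, 95% confidence interval -0.18 to 0.09, limma FDR = 0.642). *TAP2*, at 442 and 448 CPM, was above the siNC libraries but not past the FDR threshold (0.21, limma FDR = 0.0174). *TAPBPL* was 13.3 and 14.4 CPM against 11.1 and 10.1 CPM (0.36, limma FDR = 0.0213). *PDIA3* (0.19), *CANX* (0.15), *ERAP1* (0.11) and *ERAP2* (-0.13) had limma FDR values between 0.0212 and 0.221. Among the other ER chaperones, *SDF2L1* was called higher (0.62, limma FDR = 0.00405), and of the type I interferon-response genes only *IFI6* (0.76, limma FDR = 0.000734). Both siRNA comparisons use the same siNC libraries, so their values are not independent of each other.

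Between the siRNAs after IFNγ, 2.11% of all genes tested were called, 1.73% as higher with siPDL1-1, and *TAP2* was the only call among the 10, higher with siPDL1-1 (log2 difference 0.67, 95% confidence interval 0.55 to 0.79, limma FDR = 1.71e-05). The share of all genes called was 1.25% without siPDL1-2 replicate 1 and 1.18% without siPDL1-2 replicate 2, and *TAP2* was called in both. *LNPEP* was 124 and 136 CPM with siPDL1-1 and 93.8 and 88.5 CPM with siPDL1-2 (0.51, limma FDR = 0.00057), and *CALR* was 838 and 812 CPM against 1044 and 1122 CPM (-0.39, limma FDR = 0.000799), neither reaching a fold change of 1.5. *TAP1* (0.37) and *CANX* (-0.29) were past the FDR threshold alone, and *TAPBPL* (-0.35), *ERAP2* (-0.25), *PDIA3* (-0.16), *TAPBP* (0.08) and *ERAP1* (-0.04) were not past it. For *LNPEP* the order of the siRNAs was turned relative to unstimulated cells, where siPDL1-2 had been the higher of both.

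Whether the response to IFNγ itself differed between siRNAs was tested with interaction terms, as the difference of log2 fold changes. Between siPDL1-1 and siNC, 0.968% of all genes tested were called, 0.89% with a higher log2 fold change with siPDL1-1, and 1 of the 10 genes, *TAP2*. Its response was 0.83 larger with siPDL1-1 (95% confidence interval 0.67 to 0.99, limma FDR = 4.13e-06), from log2 fold changes of 3.27 and 2.43. For *TAP1* the same difference was 0.09 (95% confidence interval -0.07 to 0.25, limma FDR = 0.61), and for *TAPBP* 0.02 (-0.12 to 0.16). The ratio of *TAP1* to *TAP2* per kb after IFNγ was 5.06 and 4.83 with siPDL1-1, 7.35 and 7.17 with siNC and 5.98 and 6.17 with siPDL1-2, with no overlap between siRNAs. *LNPEP* had an interaction of 0.51 (limma FDR = 0.000688) that was below the fold change threshold, and so had *CANX*, by -0.28 (limma FDR = 0.00975). The other 5 genes, *ERAP2* (0.28), *ERAP1* (0.13), *TAPBPL* (0.05), *CALR* (-0.13) and *PDIA3* (-0.13), had limma FDR of 0.0445 or more. Of the 12 type I interferon-response genes, limma called 11 for this interaction, all higher with siPDL1-1 (median 2.46). edgeR and DESeq2 each called 9 of them. The heavy chain list and the immunoproteasome list held no call. The part of these genes in the response of *TAP2* was not tested.

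Between siPDL1-2 and siNC, 7.62% of all genes tested were called for the interaction. Most of them had a lower log2 fold change of IFNγ with siPDL1-2 (5.78% against 1.84%). The share was 4.76% without siPDL1-2 replicate 2 after IFNγ, 4.98% without siPDL1-2 unstimulated replicate 2 and 5.05% without siNC replicate 2 after IFNγ. Of the 10 genes, only *LNPEP* was called. It rose by 0.63 on the log2 scale in siNC cells while its value was -0.07 with siPDL1-2 (95% confidence interval -0.18 to 0.05, limma FDR = 0.378), an interaction of -0.69 (95% confidence interval -0.85 to -0.54, limma FDR = 4.2e-05). The siPDL1-2 libraries held 97.8 and 93.2 CPM before IFNγ and 93.8 and 88.5 CPM after it. *CANX* had the next interaction, -0.43 (limma FDR = 9.78e-05), below the fold change threshold. It went from 1083 and 1089 CPM to 1067 and 1034 CPM with siPDL1-2, while in siNC cells it went from 729 and 723 CPM to 925 and 971 CPM. *ERAP2* (-0.28, limma FDR = 0.00875) and *TAPBPL* (0.54, limma FDR = 0.00879) were past the FDR threshold alone, and *TAP2* (0.17), *TAP1* (0.05), *CALR* (0.05), *PDIA3* (-0.03), *TAPBP* (-0.05) and *ERAP1* (-0.13) were not past it. The other lists held calls in both directions. *JAK2* (-0.93), *ERO1A* (-0.71) and *IFIT2* (-0.59) rose less with siPDL1-2, while *IFI6* (0.87, limma FDR = 0.00026) rose more. The means of *DNAJB9* and *SDF2L1* moved in opposite directions with siNC and siPDL1-2. *DNAJB9* (-1.12) went from 10.98 to 20.75 CPM with siNC and from 19.44 to 16.13 CPM with siPDL1-2. *SDF2L1* (0.98, limma FDR = 0.000272) went from 10.77 to 9.954 CPM with siNC and from 8.173 to 15.79 CPM with siPDL1-2. The median over the 19 ER chaperone and oxidoreductase genes was 0.12, against -0.01 over all genes.

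Between the siRNAs, 4.87% of all genes tested were called for the interaction, 4.32% as a larger response with siPDL1-1, and 2 of the 10 genes. The share of all genes was 7.55% without siPDL1-1 replicate 1 after IFNγ. It was 3.15% without siPDL1-1 replicate 2 after IFNγ, 3.06% without siPDL1-1 unstimulated replicate 1, 2.92% without siPDL1-2 replicate 2 after IFNγ and 3% without siPDL1-2 unstimulated replicate 2. *LNPEP* responded more with siPDL1-1, from 57.6 and 59.8 CPM to 124 and 136 CPM, by 1.20 on the log2 scale (95% confidence interval 1.05 to 1.36, limma FDR = 4.58e-08). *TAP2* responded more by 0.66 (95% confidence interval 0.50 to 0.82, limma FDR = 3.04e-05). *TAPBPL* (-0.49), *ERAP1* (0.27), *CALR* (-0.18), *CANX* (0.15), *PDIA3* (-0.10), *TAPBP* (0.07) and *TAP1* (0.04) had limma FDR of 0.0195 or more. *ERAP2* had a difference of 0.56 (limma FDR = 9.92e-05), just under the fold change threshold, and passed it in edgeR (0.59) and when siPDL1-1 replicate 1 after IFNγ (0.62), siPDL1-2 replicate 1 after IFNγ (0.59) or siPDL1-2 unstimulated replicate 1 (0.60) was left out.

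*ERAP1* and *ERAP2* did not keep a fixed ratio across groups. Per kb, the ratio of *ERAP1* to *ERAP2* was 0.922 and 1.02 in unstimulated siNC cells, 1.45 and 1.54 with siPDL1-1 and 1.06 and 1.01 with siPDL1-2. After IFNγ it was 0.677 and 0.681 with siNC, 0.947 and 0.920 with siPDL1-1 and 0.829 and 0.782 with siPDL1-2. The ratio was highest with siPDL1-1 in both states and was lower after IFNγ under every siRNA, without overlap between the states of any siRNA. These ratios are given as a description, without a test, and reads where *ERAP1* overlaps *CAST* were not separated by strand.

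**Figure D5:**
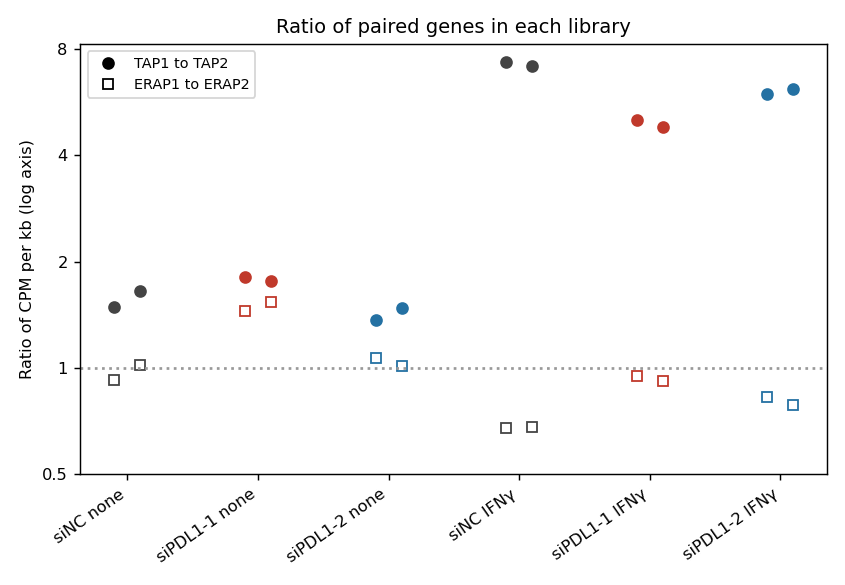
Ratio of CPM per kb in each library (y axis, log scale) for *TAP1* to *TAP2* (filled circles) and *ERAP1* to *ERAP2* (open squares), with libraries grouped by siRNA and stimulation on the x axis. After IFNγ the *TAP1* to *TAP2* ratio is highest with siNC (7.35 and 7.17) and lowest with siPDL1-1 (5.06 and 4.83), while the *ERAP1* to *ERAP2* ratio exceeds 1.4 only in unstimulated siPDL1-1 cells.

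The genes most alike in pattern were ranked by the Pearson correlation of log2(CPM + 1) over the 12 libraries, among the 14278 genes whose mean reached 1 CPM. Because 6 libraries were stimulated and 6 were not, any gene with a large response correlates with any other, and the values describe these libraries only. *TAP1* was closest to *HLA-B* (r = 0.9991), *IL18BP* and *HLA-F*. *TAP2* was closest to *XAF1* (r = 0.9991), *IFI35* and *SAMHD1*, and shared none of these 3 with *TAP1*. *TAPBP* was closest to the complement genes *C2* (r = 0.995), *C4A* and *CFB*. *TAPBPL* was closest to *HLA-DPB1* (r = 0.995), *HLA-DPA1* and *HLA-DMA*, which are class II genes. *ERAP1* was closest to *ACSL5*, *PDCD1LG2* and *PLAAT4*, and *ERAP2* to *CADPS2*, *TMPRSS3* and *PRLR*. The chaperones and *LNPEP* had lower top values, with *CALR* closest to *HDAC1* (r = 0.960), *CANX* to *TMEM260* (r = 0.973), *PDIA3* to *CLUAP1* (r = 0.975) and *LNPEP* to *ANKIB1* (r = 0.966).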

How the data were processed

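RNA-seq signal values were deposited by the authors as normalized CPM, 1 column for each of 12 libraries. Per the methods, reads were trimmed, mapped to GRCh38 (Ensembl annotation) and counted in CLC Genomics Workbench 22.0.2, with both strands counted and reads kept with up to 10 hits. Column totals differed from plain CPM by the authors' scaling factors (0.959 to 1.036). Of the values low enough to be checked, 100% were whole multiples of 1 read within 0.01 read (469 to 2473 values per library were too high), and reads recovered this way served for filtering (filterByExpr, minimum count 10, minimum total 15) and for count-based alternatives. The sample labels name an RNeasy kit and a stranded library kit, the methods name TRIzol. No batch or date is given.

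Groups came from the sample labels. limma 3.58.1 (trend and robust) was run in R 4.3.3 on log2(CPM + 1), with Benjamini-Hochberg adjustment over all genes in each of 12 comparisons. All 12 libraries were fitted as 6 groups, and the 6 stimulated libraries as 3 groups for the comparisons between siRNAs after IFNγ. Alternatives used edgeR 4.0.16 (quasi-likelihood), DESeq2 1.42.0 (Wald test and size factors), plain totals, a pseudocount of 0.1, no filter, no fold change threshold, a replicate block, other sets of libraries and each library left out. The scripts were tested on simulated data. Replicates differed by more than sampling noise (mean chi-square 1.85 to 7.76 per gene), so none was a copy.

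The 10 genes and the gene lists were chosen with earlier results of these data known. The text names the 10 genes, at most the 3 called genes with the largest changes from each other list in a comparison, genes that overlap or neighbour the 10, *CD274*, and the 3 genes most alike in pattern. Values per kb use GENCODE v44 canonical transcripts. Promoter sequences are from RefSeq (GRCh38.p14). Python 3.11.15 with pandas 2.3.3, scipy 1.17.1 and matplotlib 3.10.9 was used. Libraries of other knockdowns were not analysed here.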

Additional observations from a re-analysis of the deposited data

Results flagged for a closer look

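Of the interaction tests on the 10 genes in 3 comparisons, 4 passed both thresholds. Of all genes tested, 0.968% passed them between siPDL1-1 and siNC, 7.62% between siPDL1-2 and siNC and 4.87% between the siRNAs against *PD-L1*. For *TAP2* the log2 fold change of IFNγ was larger with siPDL1-1 than with siNC by 0.83 (limma FDR = 4.13e-06) and larger than with siPDL1-2 by 0.66 (limma FDR = 3.04e-05). For *LNPEP* it was smaller with siPDL1-2 than with siNC, by -0.69 (limma FDR = 4.2e-05), and larger with siPDL1-1 than with siPDL1-2 by 1.20 (limma FDR = 4.58e-08). Each of these was called in all 16 alternatives tried for its comparison. Groups of 2 libraries are too small to look for a library that stands apart from its group.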

How the results depend on the processing

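Over 120 results (10 genes in 12 comparisons), 1650 values were recomputed under other settings. The call was kept in 1608, lost in 1 (*LNPEP* for IFNγ in siNC cells with plain totals) and gained in 41. No called change turned its direction, and 24 values with no call in either setting changed sign. Most gains came from dropping the fold change threshold, where the number of the 10 genes called became 5 for siPDL1-1 and 6 for siPDL1-2 against siNC in unstimulated cells and 6 between the siRNAs, 4, 3 and 5 in the same order after IFNγ, and 3 and 4 for the interactions of siPDL1-1 and of siPDL1-2 with siNC. The shares of all genes called this way were 18.8%, 28.4% and 24.1% in unstimulated cells, 15.7%, 9.67% and 4.84% after IFNγ, and 1.63% and 17.1% for these interactions. edgeR gave 2 genes for the interaction of siPDL1-2 with siNC, adding *TAPBPL* (0.67 on edgeR's log2 scale). In unstimulated cells, plain totals gave 1 gene for siPDL1-2 against siNC, and leaving out single libraries gave 0 to 1. With replicate number as a block, the counts for IFNγ stayed at 7, 7 and 6 in siNC, siPDL1-1 and siPDL1-2 cells and the block changed no other call. Deviations of same-numbered libraries from their group means were weakly correlated between groups, from -0.13 to 0.19. Such correlations cannot show whether these libraries came from the same experiment. Scaling moved the median of all genes by less than 0.1 on the log2 scale. With 2 libraries per group, p-values measure the spread of these libraries only.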

Other observations

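Other peptidases showed a few differences between siRNAs. *AOPEP*, an M1 aminopeptidase gene, was called lower against siNC in unstimulated cells with siPDL1-1 (log2 fold change -0.91, limma FDR = 1.5e-06) and with siPDL1-2 (-0.63, limma FDR = 3.4e-05), and after IFNγ with siPDL1-1 (-0.61, limma FDR = 0.00121). The comparisons share the siNC libraries of each state. In unstimulated cells *ANPEP*, another gene of this family, was higher with siPDL1-1 than with siNC (0.60, limma FDR = 0.00566), at 1.343 against 0.546 CPM on average, and *TRHDE* was higher with siPDL1-2 (0.66, limma FDR = 0.00145), at 1.762 against 0.747 CPM. In these comparisons edgeR called *ANPEP* and *TRHDE* as well, while DESeq2 called neither of them. *LAP3*, which was 359 and 383 CPM in siNC cells after IFNγ, was 509 and 522 CPM with siPDL1-1 and 322 and 334 CPM with siPDL1-2, and the siRNAs differed by 0.65 on the log2 scale (limma FDR = 2.66e-05). *THOP1*, a cytosolic oligopeptidase gene, had an IFNγ interaction of 0.65 for siPDL1-2 against siNC (limma FDR = 0.0031). Its mean went from 62.97 to 46.96 CPM with siNC and from 44.09 to 52.14 CPM with siPDL1-2, in opposite directions.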
